A study of Mus musculus with 8 samples.

Results

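The Wnt ligands, their receptors and their secreted regulators were examined in the prefrontal cortex (PFC) of mice that overexpressed *Rnf146*. The rule takes gene symbols and no measured value: all *Wnt*, *Fzd*, *Sfrp*, *Dkk* and *Rspo* genes, *Lgr4* to *Lgr6*, *Ror1*, *Ror2*, *Ryk*, *Lrp5*, *Lrp6*, *Wls*, *Porcn*, *Znrf3*, *Kremen1*, *Wif1* and *Notum*. The rule matched 56 protein-coding genes of the annotation, and 36 of them had values among the 15039 genes of the deposited table. The other 20, among them *Wnt3a*, *Dkk1*, *Wif1*, *Ror1* and *Ror2*, were not analysed here.

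Wnt proteins are lipid-modified, secreted signals. The acyltransferase Porcn attaches the lipid and the carrier Wls takes the ligand to the cell surface, where it binds a Frizzled receptor and, for the β-catenin branch, the co-receptor Lrp5 or Lrp6. Ryk and the Ror proteins are receptors of other branches. Znrf3 is a ubiquitin ligase that removes Frizzled from the membrane, and R-spondins bound to an Lgr receptor take Znrf3 away. Sfrp proteins bind ligands, Dkk1 and its Kremen partners block the co-receptor, and Notum cuts off the lipid. Rnf146 acts further downstream, inside the cell, as a ubiquitin ligase for PARylated Axin.

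The RNA of PFC tissue was read in 8 libraries, 4 for each of the groups Rnf146 and eGFP, all from wild-type male C57BL/6NCrljOri mice. Mice aged 6 weeks received AAV2/1-hsyn-RNF146-eGFP (Rnf146 group) or, as control, AAV2/1-hsyn-eGFP in the PFC of both hemispheres, and the tissue was taken 4 weeks later. The synapsin promoter (hsyn) directs the vector's genes to neurons, whereas the sequenced tissue also held glia and vessels, and both groups expressed eGFP. The labels do not say whether each library came from 1 mouse. The deposited values run from 7.86 to 18.8 on a log2 scale and are centred within the replicate pairs, that is, the Rnf146 and eGFP libraries with the same number. Each gene therefore holds 4 independent differences, given here as Rnf146 minus eGFP. Because every pair has the same sum, groups without overlap and 4 differences of one sign are one and the same observation. The scale has a floor, with 8.20 as the lowest mean of any gene, and 14 of the 36 members had a mean below 9. How the scale treats weakly expressed genes is not stated, so differences are not read here as ratios of counts. In tissue, fewer cells of a type and less RNA per cell cannot be told apart.

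*Rnf146* itself (chromosome 10 of GRCm39, 29216737 to 29238438, minus strand) had values of 10.35, 10.50, 10.43 and 10.47 in the eGFP libraries of pairs 1 to 4. In the Rnf146 libraries the values were 13.17, 13.01, 13.09 and 13.05. The pair differences were 2.82, 2.51, 2.66 and 2.58, which average 2.64 ± 0.13 (SD over the 4 pairs; limma adjusted p = 3.2e-07). All 4 differences were positive, and every library matched its label. The vector's copy and the mouse's own gene share this symbol.

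None of the 36 members had an adjusted p of 0.1 or less in limma with the replicate pair as a block, against 188 called genes, or 1.25%, of the whole table (0.818% higher and 0.432% lower). At an unadjusted p of 0.05 or less, 2 members were higher and 6 were lower in the Rnf146 libraries, together 22.2% of the members against 12.4% of all genes (6.45% higher and 5.98% lower). Without the block, which treats the centred values as 8 independent libraries, 11 members were called (3 higher and 8 lower), 30.6% of the members against 21.5% of all genes (10.4% lower and the rest higher). The median difference of the members was -0.013, beside 0.00086 over all genes, and the median size of the difference was 0.07 beside 0.05. A difference above 0.2 in size was seen in 3 members (8.33%) and in 4.85% of all genes. The 3 were *Dkk3*, *Wnt4* and *Dkkl1*, all with a negative difference.

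**Figure D1:**
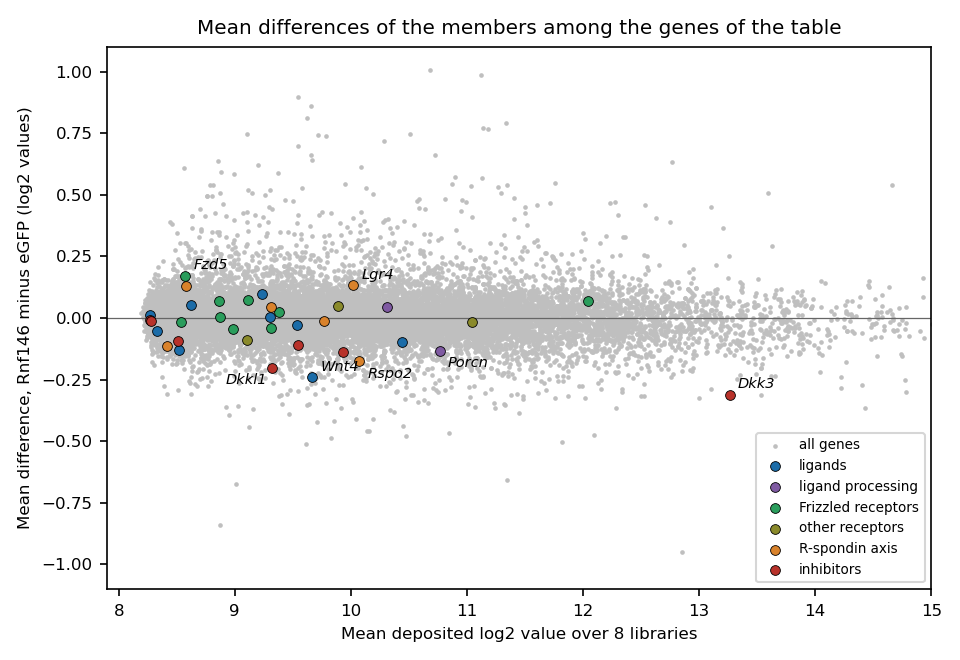
Mean difference between Rnf146 and eGFP libraries (y axis, deposited log2 values) against the mean value over 8 libraries (x axis) for the genes of the table (grey) and the 36 members (coloured by role). Genes outside the axis limits, *Rnf146* among them, are not drawn. The members lie between -0.31 (*Dkk3*) and 0.17 (*Fzd5*), within the cloud of all genes.

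Direction was the same in all 4 pairs for 7 members, or 19.4%, close to the 20.6% of all genes for which this held (10.4% higher and 10.2% lower). In each pair the Rnf146 library had the higher value of *Fzd5*, *Lgr4* and *Wnt7a*, and the lower value of *Wnt4*, *Porcn*, *Lrp5* and *Sfrp1*. For 23 members 3 pairs had one sign and the remaining pair the other, and for 6 members the pairs were evenly divided. Within a pair, 17, 15, 15 and 16 of the 36 members were higher in the Rnf146 library of pairs 1, 2, 3 and 4. With only 4 pairs, an exact sign-flip test cannot pass 0.05 for any gene.

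**Figure D2:**
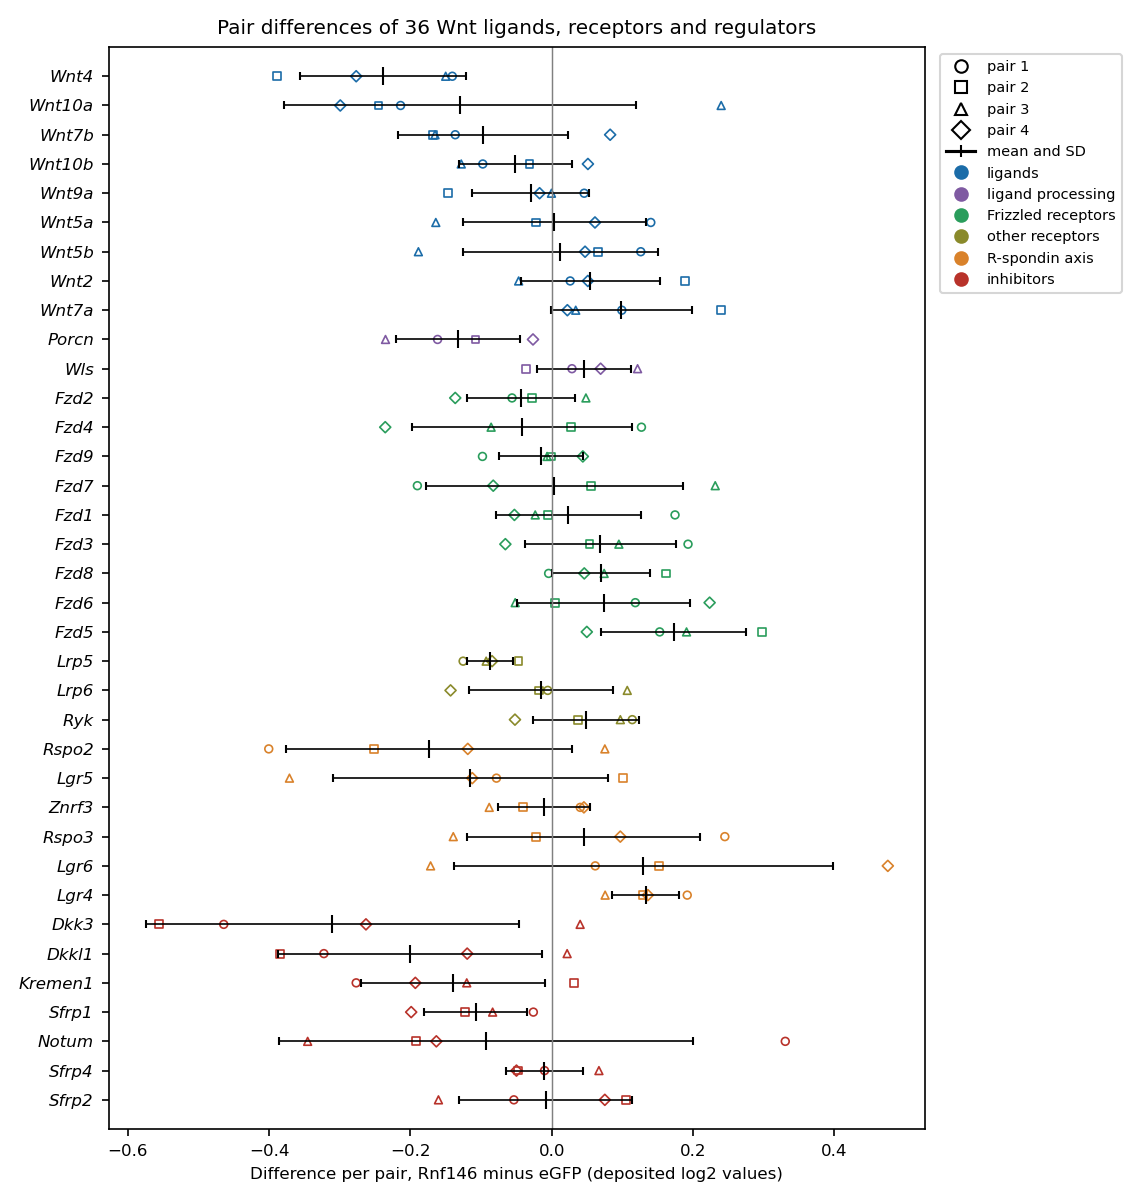
Pair differences (x axis, Rnf146 minus eGFP in deposited log2 values) of the 36 members (y axis), grouped by role, with 1 symbol for each of the 4 pairs and a black bar for the mean ± SD over pairs. The 3 genes at the right of 0 in every pair are *Fzd5*, *Lgr4* and *Wnt7a*. All 7 genes of the inhibitor group have a mean left of 0, though *Sfrp2* and *Sfrp4* lie close to it.

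Among the 9 ligands with values, *Wnt4* had the most negative difference. *Wnt4* encodes a ligand that acts through β-catenin and through other branches depending on the tissue (chromosome 4, 137004373 to 137027037, plus strand). Its values were 9.74, 9.86, 9.74 and 9.80 in the eGFP libraries and 9.59, 9.47, 9.59 and 9.53 in the Rnf146 libraries of pairs 1 to 4. All 4 differences were negative, and pairs 2 and 4 were farthest apart. The mean difference was -0.24 ± 0.12 (SD, n = 4 pairs), with a 95% confidence interval from -0.37 to -0.11 and an adjusted p of 0.136 from limma. It was the smallest adjusted p of the 36 members. With pair 1 left out the difference was -0.27 and the adjusted p 0.098, so *Wnt4* was then called; leaving out any other pair gave adjusted p-values from 0.167 to 0.453.

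*Wnt7a* and *Wnt7b* encode paralogous ligands of the β-catenin branch, known for their role in brain vessels and in synapse formation. The 4 pair differences of *Wnt7a* were 0.10, 0.24, 0.03 and 0.02, from 9.18, 9.11, 9.22 and 9.22 in the eGFP libraries to 9.28, 9.35, 9.25 and 9.25 in the Rnf146 libraries. All were positive, but pairs 3 and 4 barely differed. Their average, 0.10 ± 0.10 (SD over the 4 pairs), did not exceed the spread, and the adjusted p was 0.490. Without pair 2 the difference of *Wnt7a* was 0.05 (adjusted p = 0.863). *Wnt7b* had differences of -0.14, -0.17, -0.17 and 0.08, with a mean of -0.10 ± 0.12 and an adjusted p of 0.525. Only pair 4 ran against the others. *AU022754*, which overlaps *Wnt7b* on the opposite strand, differed by -0.04.

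*Wnt10a* had the widest spread among the ligands, with -0.21, -0.25, 0.24 and -0.30 in the 4 pairs and an adjusted p of 0.577. *Wnt5a* and *Wnt5b*, ligands best known for branches without β-catenin, had mean differences of 0.0038 and 0.012. *Wnt2*, *Wnt9a* and *Wnt10b* had mean differences of 0.05, -0.03 and -0.05. *Wnt5b* and *Wnt10b* sat close to the floor of the scale, at mean values of 8.27 and 8.33. For the 7 ligands other than *Wnt4* and *Wnt7a*, the confidence intervals ran from -0.32 at the lowest to 0.17 at the highest, and each mean was smaller than its spread between pairs.

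Both genes of ligand processing had values. *Porcn*, the acyltransferase gene (chromosome X, 8059935 to 8073131, minus strand), had values of 10.85, 10.82, 10.88 and 10.78 in the eGFP libraries and 10.68, 10.71, 10.65 and 10.75 in the Rnf146 libraries. All 4 differences were negative, the smallest being 0.03 in size in pair 4. Its mean difference was -0.13 ± 0.09 (SD, n = 4 pairs; adjusted p = 0.327). *Wls* had 0.05 ± 0.07 with an adjusted p of 0.755, and was higher in 3 of the 4 pairs. Whether *Porcn* and *Wls* differ from each other was not tested.

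Of the 9 Frizzled receptor genes, 6 had a mean difference above 0, where 50.5% of all genes did. Among these 6, *Fzd7* at 0.0036 and *Fzd1* at 0.02 changed sign when some pair was left out. Of the 9, 1 was at an unadjusted p of 0.05 or less. This was *Fzd5*, which encodes a receptor of the β-catenin branch (chromosome 1, 64769717 to 64776934, minus strand). Its values were 8.50, 8.43, 8.48 and 8.55 in the eGFP libraries and 8.65, 8.72, 8.67 and 8.60 in the Rnf146 libraries. All 4 differences were positive, the widest in pair 2 and the narrowest in pair 4. The mean difference of *Fzd5* was 0.17 ± 0.10 (SD, n = 4 pairs), with a confidence interval from 0.06 to 0.29 and an adjusted p of 0.217. With each pair left out in turn it ranged from 0.13 to 0.21.

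The other 8 Frizzled genes, *Fzd1* to *Fzd4* and *Fzd6* to *Fzd9*, had mean differences between -0.04 (*Fzd2*) and 0.07 (*Fzd6*), and adjusted p-values from 0.595 to 0.992. *Fzd3*, a receptor needed for axon growth, had a mean value of 12.05, far from the floor of the scale. It differed by 0.19, 0.05, 0.09 and -0.07 over the pairs, with a confidence interval from -0.05 to 0.19. *Fzd4*, the receptor for norrin in vessels, had a mean difference of -0.04 with pairs spread from -0.24 to 0.13. Across these 8 genes the confidence intervals lay between -0.19 and 0.20.

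The co-receptor genes *Lrp5* and *Lrp6* encode closely related proteins. *Lrp5* (chromosome 19, 3634821 to 3736643, minus strand) had 9.17, 9.13, 9.15 and 9.15 in the eGFP libraries and 9.05, 9.08, 9.06 and 9.07 in the Rnf146 libraries. The 4 pair differences of -0.13, -0.05, -0.09 and -0.08 were all negative and close to each other. The mean was -0.09 ± 0.03 (SD, n = 4 pairs), more than its spread, but limma draws the variance of a gene towards that of others with a like mean, and the adjusted p was 0.463. *Lrp6* differed by -0.02 ± 0.10 and *Ryk* by 0.05 ± 0.08, with adjusted p-values of 0.942 and 0.749.

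In the R-spondin axis, *Lgr4* had the smallest spread between pairs of the genes with a positive difference. It encodes a receptor for R-spondins (chromosome 2, 109747839 to 109844609, plus strand). Values were 9.92, 9.95, 9.98 and 9.95 in the eGFP libraries against 10.11, 10.08, 10.06 and 10.09 in the Rnf146 libraries. The difference was positive in every pair, from 0.08 to 0.19. The mean difference was 0.13 ± 0.05 (SD, n = 4 pairs), with a confidence interval from 0.03 to 0.24 and an adjusted p of 0.290.

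*Rspo2*, which encodes a secreted R-spondin (chromosome 15, 42877439 to 43034706, minus strand), had a negative difference in 3 pairs. Its values were 10.27, 10.20, 10.03 and 10.13 in the eGFP libraries and 9.87, 9.94, 10.11 and 10.01 in the Rnf146 libraries. The groups overlapped through pair 3. On average *Rspo2* differed by -0.17 ± 0.20 (SD, n = 4 pairs; adjusted p = 0.394), less than its spread. Without pair 1 it was -0.10 (adjusted p = 0.601).

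*Lgr5*, *Lgr6*, *Rspo3* and *Znrf3* had mean differences of -0.12, 0.13, 0.04 and -0.01, each smaller than its spread between pairs. In *Lgr6* pair 4 alone reached 0.48 and pair 3 was at -0.17. *Znrf3*, itself a target of β-catenin, lay between -0.09 and 0.045 in the 4 pairs, with a confidence interval from -0.12 to 0.10.

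The mean difference was negative in all 7 inhibitor genes, and 3 (*Dkk3*, *Dkkl1* and *Kremen1*) were lower at an unadjusted p of 0.05 or less, as were 5.98% of all genes. A positive difference was seen in 50.5% of all genes. None of the 7 was called. *Sfrp2* and *Sfrp4* were close to 0, at -0.0086 and -0.010, and changed sign when some pair was left out. *Dkk3* and *Dkkl1* are in this group by family name and had its largest differences in size, -0.31 and -0.20. Both genes enter the median and the averages given next. The median over the 7 was -0.11, and their average by pair was -0.12, -0.17, -0.08 and -0.13. No test was made of the 7 as a set.

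*Dkk3* encodes a secreted protein related to Dkk1 that does not block the co-receptors in the same way and is abundant in cortical neurons (chromosome 7, 111712904 to 111758760, minus strand). It had 13.50, 13.54, 13.24 and 13.40 in the eGFP libraries and 13.03, 12.99, 13.28 and 13.13 in the Rnf146 libraries. Pair 3 alone had a positive difference, 0.04, and made the groups overlap. The mean difference was -0.31 ± 0.26 (SD, n = 4 pairs), the largest in size of the 36 members, with a confidence interval from -0.52 to -0.11 and an adjusted p of 0.210. With pair 3 left out the difference was -0.43, the adjusted p was 0.060 and *Dkk3* was called. Without any other pair the adjusted p lay between 0.295 and 0.567.

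*Dkkl1*, which encodes a Dkk3-like protein, had its pairs in the same order as *Dkk3* (chromosome 7, 44856027 to 44865161, minus strand). Its values of 9.48, 9.51, 9.31 and 9.38 in the eGFP libraries stood against 9.16, 9.12, 9.33 and 9.26 in the Rnf146 libraries. As in *Dkk3*, pair 2 differed most and pair 3 was slightly above 0. *Dkkl1* differed by -0.20 ± 0.19 (SD, n = 4 pairs; adjusted p = 0.298, or 0.169 without pair 3).

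*Kremen1*, the gene for a Dkk1 partner, had 10.07, 9.92, 9.99 and 10.03 in the eGFP libraries and 9.79, 9.95, 9.87 and 9.83 in the Rnf146 libraries. Here pair 2, not pair 3, was the exception, at 0.03. On average *Kremen1* differed by -0.14 ± 0.13 (SD, n = 4 pairs; adjusted p = 0.384).

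*Sfrp1*, which encodes a secreted Frizzled-related protein, had 9.56, 9.61, 9.59 and 9.65 in the eGFP libraries and 9.53, 9.48, 9.50 and 9.45 in the Rnf146 libraries. All 4 differences were negative, though pair 1 differed by only -0.03. Averaged over pairs the difference was -0.11 ± 0.07 (SD, n = 4 pairs; adjusted p = 0.427). *Sfrp2* and *Sfrp4* lay at the floor of the scale, at mean values of 8.27 and 8.28, and differed by -0.0086 and -0.010. *Notum* had 0.33 in pair 1 but -0.19, -0.35 and -0.16 in the others, and an adjusted p of 0.754.

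**Figure D3:**
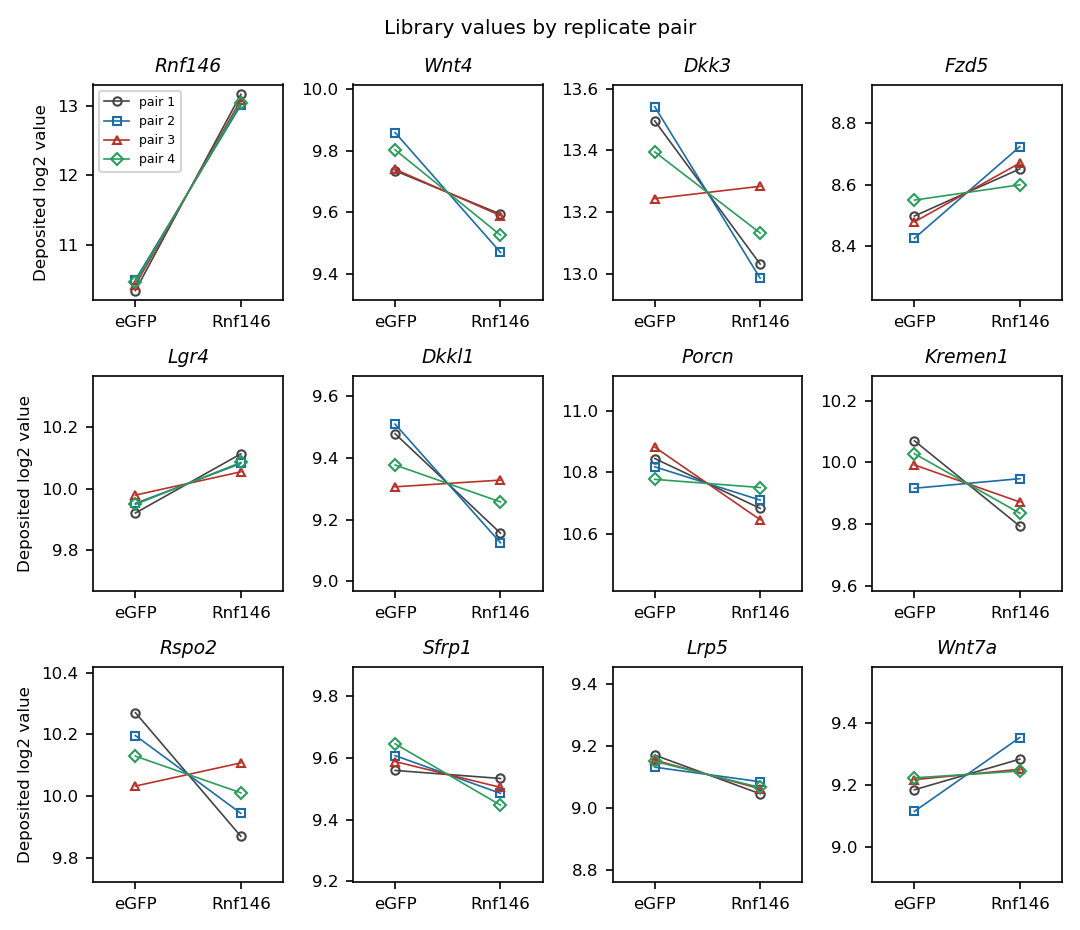
Deposited log2 values (y axis) of the eGFP and Rnf146 libraries (x axis) of each pair, joined by a line, for *Rnf146* and the 11 members described by library. The panels of the 11 members span the same height, and the *Rnf146* panel has its own scale. Lines of *Wnt4*, *Porcn*, *Lrp5* and *Sfrp1* all slope down, those of *Fzd5*, *Lgr4* and *Wnt7a* all slope up, and pair 3 runs against the others in *Dkk3*, *Dkkl1* and *Rspo2*.

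The 11 members described by library were also the 11 that limma called without the block. Of these 11, 9 had a mean difference larger than its SD between pairs. In each of the other 25 members the mean difference was smaller than that SD. The 11 were chosen from these same differences, so neither the match nor the split is separate support. The weakest change that the blocked test called anywhere in the table was 0.20 in size, in a gene with a mean below 10, and 89 of the 188 called genes had such a mean. In the whole table, 8040 of the 15039 genes had a mean below 10. The blocked test called 1.11% of those genes, beside 1.25% of all genes. Of the members, 28 had a mean below 10. The confidence interval of 28 members included 0, and no member's interval reached beyond -0.52 or 0.33.

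The promoters of the members were searched for the TCF/LEF core CTTTGA, or its reverse complement TCAAAG, in the 250 bases before each start in the RefSeq promoter table (GRCm38.p6). The table matched 17 of the 36 members. The core was present in 2 of their 19 windows (10.5%) and in 13.8% of the 32851 windows of all genes. Counted by gene, 2 of the 17 members (11.8%) had it, beside 12.7% of the 11133 genes of the deposited table with a promoter there. The 2 windows are shown around the core, in capitals, with 30 bases on each side where the window allows, for *Fzd1* (chr5:4758423-4758466, minus strand, core 242 bases before the start) and *Wnt5b* (chr6:119449422-119449487, minus strand, core 71 bases before 1 of its starts):
*Fzd1*: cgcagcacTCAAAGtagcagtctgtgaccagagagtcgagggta
*Wnt5b*: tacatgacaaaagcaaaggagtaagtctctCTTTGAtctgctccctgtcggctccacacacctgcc
The differences of these genes were 0.02 ± 0.10 and 0.01 ± 0.14 (SD, n = 4 pairs), smaller than their spread. The windows of *Wnt4*, *Fzd5*, *Lgr4*, *Wnt7a* and *Dkkl1* did not hold the 6 letters.

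Further genes of the pathway were read from 5 lists, which share some genes with each other and, in *Znrf3*, *Notum* and *Lgr5*, with the members. Leaving those 3 out, 58 of 63 listed genes had values and 0 were called with the block. At an unadjusted p of 0.05 or less, 3 were higher and 6 lower, together 15.5% beside 12.4% of all genes. Without the block 5 were called higher and 9 lower, together 24.1% beside 21.5%. Their median difference was -0.0070.

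For the β-catenin destruction complex and the factors that turn it over, the 14 listed genes had differences between -0.08 and 0.09, with a median of 0.02, and 0 passed even the unadjusted threshold. *Gsk3b*, the kinase that marks β-catenin for removal, had the largest, 0.09 ± 0.06 (SD, n = 4 pairs; adjusted p = 0.463). *Axin1*, whose protein is the substrate of Rnf146, differed by -0.03 ± 0.02, and *Ctnnb1*, the gene for β-catenin, by 0.04 ± 0.17. These are RNA values and carry no information on protein or phosphorylation.

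Of the 14 feedback targets of β-catenin with values (16 listed), 4 had a positive difference and 10 a negative one, with a median of -0.02 and 0 called. *Axin2*, the most widely used target, had pair differences of 0.10, 0.0075, -0.010 and -0.12, which average -0.0041 ± 0.09, and an adjusted p of 0.986. *Rnf43*, the partner of *Znrf3* in Frizzled turnover, had the largest difference of the list, 0.15 ± 0.16, with an adjusted p of 0.372. The 11 TCF/LEF genes and partners had a median of -0.0011 and 0 called, and *Pygo2*, a co-activator gene, was lowest at -0.16 ± 0.10 with an adjusted p of 0.266.

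Among 12 Dishevelled and planar polarity genes, 10 had a negative difference and 5 were lower in all 4 pairs, as were 10.2% of all genes, with a median of -0.12 and 0 called. At an unadjusted p of 0.05 or less, 1 was higher and 4 were lower, together 41.7% beside 12.4% of all genes (6.45% higher and 5.98% lower). Of all genes, 50.5% had a positive mean difference. *Celsr3*, which encodes an adhesion receptor of axon tracts, differed by -0.27 ± 0.18 with an adjusted p of 0.156, whereas its paralog *Celsr1* had 0.19 ± 0.16 with an adjusted p of 0.290. In 15 other extracellular and membrane genes (18 listed), the median was 0.04 and 0 were called, with *Gpc3*, a glypican gene that the study names from these libraries, highest at 0.27 ± 0.24 (adjusted p = 0.231, so not called).

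Marker genes of cell types were averaged by pair to set beside the members. All 10 markers of cortical excitatory neurons were in the table, as were all 10 striatal markers, so presence does not identify the tissue. The average of the cortical list was 11.12 to 11.24 in the eGFP libraries and 10.98 to 11.10 in the Rnf146 libraries. It differed by -0.20, -0.26, -0.015 and -0.14 in the 4 pairs, with 2 genes called lower, *Neurod2* (-0.30, adjusted p = 0.069) and *Slc17a7* (-0.30, adjusted p = 0.092). Of all genes, 0.432% were called lower. The 2 markers above 0 were *Rorb* at 0.0019 and *Foxp2* at 0.28 (adjusted p = 0.220). The differences of *Dkk3*, *Dkkl1* and *Rspo2* were likewise largest in size in pairs 1 and 2 and nearest 0 in pair 3. This order was not particular to the cortical list. Microglial markers had it too, at -0.20, -0.30, -0.08 and -0.11. The fibroblast average was also nearest 0 in pair 3, at 0.03. The average of the septum and basal forebrain markers was positive in all 4 pairs and likewise nearest 0 in pair 3, at 0.34. The part of any cell type in the differences of the 3 genes was not tested.

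Other lists also differed between the groups. The septum and basal forebrain list (5 of 10 genes in the table, with *Chat* and *Slc18a3* among those not analysed here) differed by 0.52, 0.74, 0.34 and 0.63. Its average was 9.17 to 9.38 in eGFP libraries and 9.71 to 9.92 in Rnf146 libraries. All 5 genes were called higher, whereas 0.818% of all genes were. The interneuron list (8 of 8) had 0.13, 0.23, 0.21 and 0.22 with 4 genes on each side of 0. *Gad1*, *Gad2*, *Slc32a1* and *Dlx1*, which striatal neurons also express, were called higher, by 0.37 to 0.64. These 4 genes were higher in all 4 pairs, and the source of their differences was not tested. *Pvalb*, *Sst*, *Lhx6* and *Vip* had -0.03, -0.06, -0.11 and -0.23, and none was called. The list of ependyma and choroid plexus (4 of 8, without *Ttr* and *Folr1*) had 0.29, 0.24, 0.35 and 0.28 with 3 called higher. Striatal markers (10 of 10) had -0.11, 1.32, 0.70 and 0.30 and oligodendrocyte markers (8 of 8) -0.14, 0.49, 0.97 and 0.55, both with 0 called. At an unadjusted p of 0.05 or less in limma, 9 striatal and 8 oligodendrocyte markers were higher, as were 6.45% of all genes.

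In the remaining lists 0 genes were called. Their average differences were -0.03 for astrocytes (8 of 8), 0.07 for oligodendrocyte precursors (5 of 5), -4.1e-05 for endothelium (6 of 6) and -0.08 for meningeal and perivascular fibroblasts (8 of 8). Microglial markers (6 of 6) averaged -0.17, and 5 of the 6 were lower in all 4 pairs, as were 10.2% of all genes. *Fzd5* and *Wnt7a* had their largest difference in pair 2, the pair with the largest striatal, septal and interneuron differences, and *Wnt4* its most negative. Pair 2 also held the most negative cortical and microglial averages. *Lgr4* and *Lrp5* differed most in pair 1, *Porcn* in pair 3 and *Sfrp1* in pair 4. In pair 1 the striatal average was -0.11, while *Fzd5*, *Wnt7a* and *Wnt4* kept the sign they had in pair 2. How far tissue composition enters the values of the members was not tested.

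**Figure D4:**
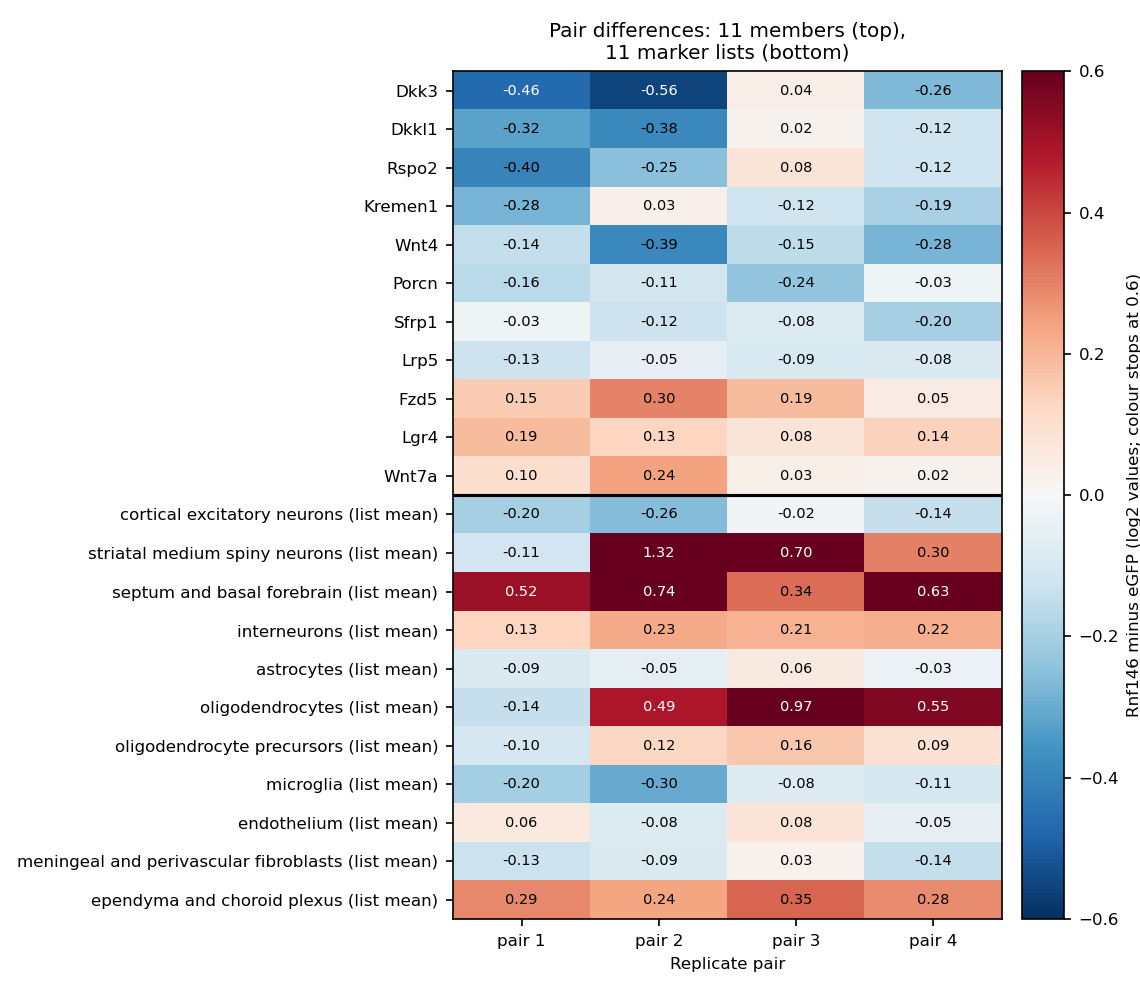
Pair differences (colour and printed number, Rnf146 minus eGFP in deposited log2 values) of 11 members and of the average of 11 marker lists (rows) in each of the 4 pairs (columns). *Dkk3*, *Dkkl1* and *Rspo2* are palest in pair 3. So are the lists of cortical excitatory neurons at -0.02, microglia at -0.08 and fibroblasts at 0.03. The septal list is positive in all 4 pairs and is also palest in pair 3, at 0.34.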

How the data were processed

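RNA of dissected PFC was sequenced from 4 Rnf146 and 4 eGFP libraries. The authors trimmed reads with Cutadapt, quantified transcripts with Salmon 1.9.0 against GENCODE vM30 (GRCm39). The deposited values are log2 values, although the table is named for normalized counts, and their normalization is not given in the sources used here. DESeq2 is listed in the submitters' processing notes with no role. The 2 libraries of a pair sum to the same value in all 4 pairs, within 1.4e-13 for every gene, which shows the centring. Replicate numbers in the labels give the pairing, as does that centring, which makes paired deviations mirror each other. Nothing states that a number marks a shared cage or day. No counts are at hand, so the depth is unknown and no count test was run. Number of libraries limits the precision, and p-values measure only the spread between these pairs.

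Groups and replicates came from the sample labels. All 15039 genes were fitted with limma 3.58.1 (R 4.3.3; lmFit, eBayes with trend) with the pair as a block, which leaves 3 residual degrees of freedom, and p-values were adjusted by the Benjamini-Hochberg method over all genes. The threshold for a call was an adjusted p of 0.1, as in the study. The fit was tested on simulated data. Single values were also put to an exact two-sided sign-flip test. Python 3.11.15, pandas 2.3.3 and scipy 1.17.1 were used for the rest. Coordinates are from GENCODE vM39 on GRCm39, and promoter windows from RefSeq on GRCm38.p6. Members and lists were chosen with earlier results of these data known. Library values were given for members called, at an unadjusted p of 0.05 or less, of 1 direction in all 4 pairs, or with the largest difference of their role; of each list, called genes and the gene with the largest difference were to be named, and other named list genes were chosen after their values were seen. Alternatives were no block, median centring, quantile normalization, leaving out genes below the lower quartile of the mean, untrended and robust variances, an adjusted p of 0.05 and leaving out each pair.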

Additional observations from a re-analysis of the deposited data

Results flagged for a closer look

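In 2 members, 1 pair stood apart from the other 3 by more than Dixon's 95% limit for 4 values. In *Wnt10a*, pair 3 was at 0.240 and the others between -0.30 and -0.21. In *Wnt7b*, pair 4 was at 0.083 and the others between -0.17 and -0.14. Of 37 genes examined (the 36 members and *Rnf146*), chance alone flags about 1 in 20.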

How the results depend on the processing

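The number of members called stayed at 0 with median centring, quantile normalization, the genes of lowest mean left out (22 members kept), untrended or robust variances and an adjusted p of 0.05. Without the replicate block 11 members, 14 further pathway genes and 3226 genes of the table were called, against 0, 0 and 188 with it. Leaving out each pair in turn called 0 or 1 members (*Wnt4* without pair 1, *Dkk3* without pair 3) and 14 to 421 genes of the table, 421 without pair 1, 42 without pair 2 and 14 without pair 4. With an adjusted p of 0.05, 80 genes of the table were called (67 higher and 13 lower, against 123 and 65). The median difference of the members lay between -0.028 and -0.014 with a pair left out. The *Rnf146* difference kept its call throughout, between 2.58 and 2.69.

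The sign of 12 members changed when some pair was left out, all of them with a mean difference of 0.05 or less in size. The ranges were *Fzd1* from -0.027 to 0.049, *Fzd4* from -0.098 to 0.023, *Fzd7* from -0.072 to 0.068, *Fzd9* from -0.035 to 0.012, *Lrp6* from -0.056 to 0.028, *Rspo3* from -0.022 to 0.11, *Sfrp2* from -0.046 to 0.042, *Sfrp4* from -0.036 to 0.0029, *Wnt5a* from -0.042 to 0.060, *Wnt5b* from -0.026 to 0.079, *Wnt9a* from -0.055 to 0.0094 and *Znrf3* from -0.030 to 0.015. With quantile normalization *Fzd7* and *Wnt5a* turned to -0.0098 and -0.0061. The values carry no depth, so the precision of members near the floor of the scale is not known.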
